A study of Mus musculus with 2 samples.

Results

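Predicted piRNAs in L1 elements, the main family of long interspersed nuclear elements (LINEs) of the mouse, were examined in the small RNA of testicular extracellular vesicles (EVs). They are the entries that the authors predicted as piRNA with Piano and placed in a repeat of the class LINE/L1. There were 1450 such entries among 6588 predicted piRNAs and 27065 listed small RNA entries. Entries that shared one repeat interval were joined into a locus, which gave 354 L1 loci among 1648 loci of predicted piRNAs. Both libraries belonged to 1 condition, testicular EVs of adult C57/BL6 mice, digested with proteinase K and RNase A before RNA extraction and sequenced on the BGISEQ-500 platform. No source states that each library had its own animals or its own EV preparation, and differences between the 2 libraries may be technical for that reason. Library 1 summed to 21970654 listed counts and library 2 to 24829208. All levels below are counts per 1000000 listed counts (CPM), as mean ± SD of the 2 libraries. There was a single condition, and hence no comparison of conditions.

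L1 elements are autonomous retrotransposons that copy themselves through an RNA intermediate, and most copies in the genome are shortened or decayed. piRNAs are small RNAs carried by PIWI proteins of germ cells. In the mouse male germ line they guide the silencing of L1 and of LTR retrotransposons, and loss of this pathway is known to raise L1 RNA and to arrest spermatogenesis. In the adult testis most piRNAs are cut from long precursor transcripts of clustered loci, many of them between protein-coding genes, and such precursors can contain pieces of L1 and other repeats in either orientation.

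The deposited tables give the position of each repeat and no sequence of the piRNA itself. Sequence of a whole locus could be read here only where it lay inside an exon of the GENCODE M21 annotation of GRCm38. The following L1 loci are shown because they align with each other, each on the strand given for its repeat. The first 300 of 427 bases are printed for chr7:73820058-73820484 on the minus strand, opposite to an exon of the lincRNA gene Gm21269. The whole 201 bases are printed for chr7:73836844-73837044 on the plus strand, in an exon of Gm21269 on its own strand. The whole 179 bases are printed for chr17:27365598-27365776 on the plus strand, in an exon of the lincRNA gene Gm49794 on its own strand. Capitals mark the stretches that align with another of the printed loci.
L1 locus chr7:73820058: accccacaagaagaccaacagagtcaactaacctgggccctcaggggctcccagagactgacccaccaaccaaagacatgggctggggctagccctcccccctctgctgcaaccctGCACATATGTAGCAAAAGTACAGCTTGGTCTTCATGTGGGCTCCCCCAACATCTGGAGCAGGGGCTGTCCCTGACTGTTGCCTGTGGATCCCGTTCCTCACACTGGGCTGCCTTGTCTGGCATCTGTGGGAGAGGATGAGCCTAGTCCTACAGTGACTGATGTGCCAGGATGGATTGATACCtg
L1 locus chr7:73836844: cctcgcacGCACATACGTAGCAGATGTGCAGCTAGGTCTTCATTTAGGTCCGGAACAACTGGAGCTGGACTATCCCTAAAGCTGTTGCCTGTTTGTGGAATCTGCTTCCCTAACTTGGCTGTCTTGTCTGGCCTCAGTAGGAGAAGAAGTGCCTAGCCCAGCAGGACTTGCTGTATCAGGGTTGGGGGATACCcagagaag
L1 locus chr17:27365598: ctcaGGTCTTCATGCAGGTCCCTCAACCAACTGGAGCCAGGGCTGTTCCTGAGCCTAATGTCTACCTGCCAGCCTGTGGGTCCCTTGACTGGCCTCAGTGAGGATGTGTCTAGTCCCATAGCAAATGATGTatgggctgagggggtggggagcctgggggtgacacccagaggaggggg

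The pair on chromosome 7 was identical at 136 of 189 aligned positions, gaps counted, which is 72.0% identity. The loci chr7:73820058 and chr17:27365598 were identical at 97 of 139 aligned positions, or 69.8%. The aligned stretches are thus diverged copies of one sequence. All 3 gave predicted piRNAs, with 692 and 942 counts at chr7:73820058, 130 and 195 counts at chr7:73836844, and 67 and 181 counts at chr17:27365598 in libraries 1 and 2. Of the 403 windows of 25 bases in chr7:73820058, 9 also stood unchanged in GENCODE transcripts of 14 other genes, so short tags from that stretch could match more than 1 place. None of the windows of the other printed loci did so.

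The same reading was used to look at the build and strand of the files. Among 92 predicted piRNA loci of all classes inside an exon, 25 pairs of the same repeat class aligned on the deposited strands and 2 pairs aligned on opposite strands. A further 3 pairs of different classes aligned. Pairs starting less than 5000 bases apart on a chromosome were left out. At positions shifted by 5000 bases to either side, 47 and 40 stretches lay inside an exon and no pair of any kind aligned. The positions therefore fit GRCm38, and the strand in the tables behaved as the strand of the repeat. No interval was listed on both strands. Plus and minus below are strands of the L1 copy, and the strand of the piRNA was not analysed here.

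The L1 locus described next reached the start of an annotated gene, and how many L1 loci do so was not established. The L1 interval chr7:73780521-73781562 on the plus strand held 13 predicted piRNAs, with 478 counts in library 1 and 554 in library 2, at 22.0 ± 0.393 CPM. It overlapped an exon of the lincRNA gene Gm10619 on the opposite strand. It also covered the last 69 bases of the RefSeq promoter window of the noncoding gene Gm30236, chr7:73780290-73780589 on the plus strand of GRCm38.p6, which holds 250 bases before and 50 bases after the transcription start. The window is printed with the part inside the L1 interval in capitals.
Gm30236 promoter: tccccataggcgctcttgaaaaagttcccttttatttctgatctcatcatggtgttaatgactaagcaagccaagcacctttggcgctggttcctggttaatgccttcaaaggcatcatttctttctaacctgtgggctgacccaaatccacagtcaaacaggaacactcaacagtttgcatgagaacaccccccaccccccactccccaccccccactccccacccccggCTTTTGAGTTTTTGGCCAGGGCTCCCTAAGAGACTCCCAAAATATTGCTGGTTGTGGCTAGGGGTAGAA

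L1 predicted piRNAs summed to 121057 and 130123 counts in libraries 1 and 2, or 5510 and 5241 CPM, with a mean of 5375 ± 190 CPM. They took 21.6% (exact Clopper-Pearson 95% interval 21.49 to 21.71) of the predicted piRNA counts in library 1 and 23.6% (23.48 to 23.71) in library 2. The intervals do not overlap, so the libraries differed by more than counting error, which is all that such intervals cover. L1 held 22.0% of the predicted piRNA entries, close to its share of the counts. Of all piRNA counts, known ones included, L1 took 3.47% in library 1 and 2.85% in library 2, and of all listed counts 0.551% and 0.524%.

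By counts L1 ranked between the 2 other large classes, both of which are LTR retrotransposons, and by entries it was below both. ERVL-MaLR, a group of mostly decayed LTR elements, held 1647 entries in 342 loci and 36.6 ± 0.331% of the predicted piRNA counts. ERVK, which contains the intracisternal A particles, held 1635 entries in 489 loci and 17.9 ± 1.00%. The L1 share of 22.6 ± 1.41% was apart from both by more than the spread of the libraries. The rank of L1 above ERVK rested on its 2 highest loci. With those left out the L1 share fell to 16.7%, below the 17.9% of ERVK, from which no locus was left out.

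An L1 locus spanned between 58 and 2857 bases, with a median of 532.5 bases and quartiles of 302 and 950.5 bases. The median was 329 bases in ERVL-MaLR and 498 bases in ERVK. Only 10 intervals were over 2000 bases, and all were shorter than a complete L1 element. Entries per locus averaged 4.10 in L1, 4.82 in ERVL-MaLR and 3.34 in ERVK.

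Most L1 loci had a single listed entry, and few loci held most of the counts. Entry numbers ran to 59086, whereas 6588 predicted piRNAs were listed, each L1 one with at least 10 counts in both libraries. L1 loci with 2 or more entries spanned 4388 numbers for 1245 listed entries. Entries per locus thus cover listed entries only, and unlisted ones could not be counted. A single entry was listed at 205 of the 354 loci (57.9%), against 55.6% of ERVL-MaLR loci and 57.9% of ERVK loci. These single-entry loci held 8.04% of the L1 counts in library 1 and 6.66% in library 2. The 69 loci with 5 or more entries held 70.2% and 79.8%, and the 12 loci with 20 or more held 43.7% and 53.4%. The 10 highest loci held 55.6% and 59.0%. In the same order, the 10 highest loci held 62.5% and 58.8% in ERVL-MaLR and 34.6% and 33.5% in ERVK. The median L1 locus had 2.40 CPM, 63 loci were over 10 CPM and 90 were under 1 CPM.

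Single entries were skewed in the same manner. The median L1 entry had 1.25 CPM, against 1.31 CPM for all predicted piRNAs. Every L1 entry had at least 10 counts in both libraries, 119 had at least 100 in both and 12 at least 1000. The share of the 10 highest entries was 29.6% in library 1 and 34.0% in library 2.

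The 3 highest L1 loci stood apart from the rest in level, and their share of the L1 counts was 38.8% in library 1 and 41.0% in library 2. The highest lay on chromosome 2, at chr2:90394491-90395211 on the plus strand, outside annotated genes, with 50 entries in 721 bases. Library 1 had 17011 counts there and library 2 had 35445, or 774 and 1428 CPM, a mean of 1101 ± 462 CPM. The second lay in an intron of Anks1b, which encodes an ankyrin repeat protein, on the strand of the gene at chr10:90342668-90342858. It had only 3 entries, and 17404 counts in library 1 against 8725 in library 2, or 792 and 351 CPM, a mean of 572 ± 312 CPM. Library 2 was higher at the first of these loci and library 1 at the second. The third, chrX:21679356-21680794 on the minus strand and outside annotated genes, had 63 entries, 12544 and 9135 counts, and 469 ± 144 CPM. None of the 3 had another predicted piRNA locus within 10 kb on either strand.

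**Figure D1:**
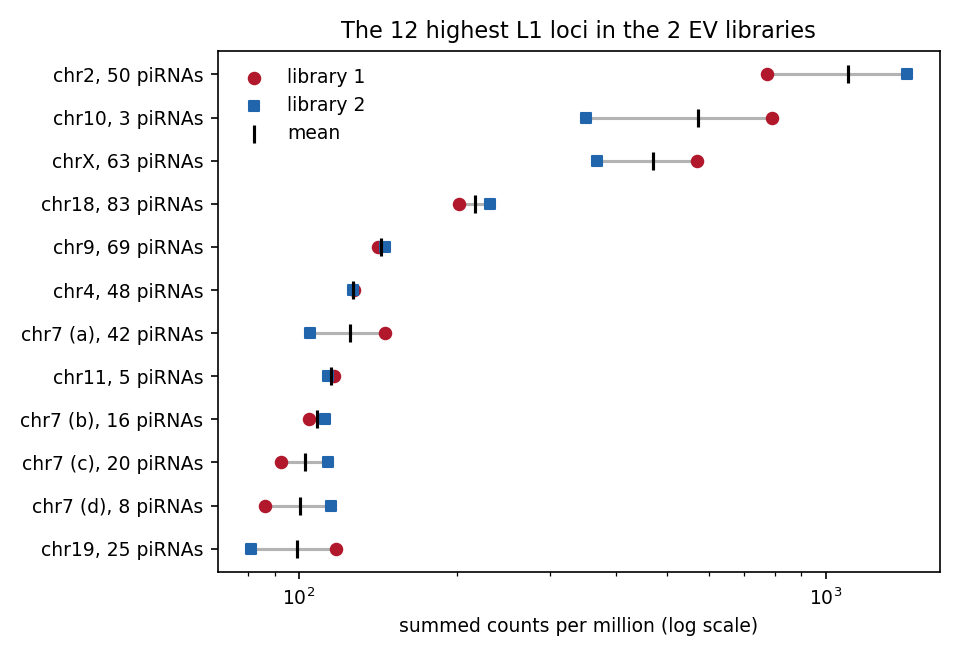
Summed CPM (log scale) of the 12 L1 loci of highest mean level, with library 1 as circles, library 2 as squares and the mean as a vertical bar; the letters a to d mark the 4 loci of chromosome 7 in order of level. The first 3 loci lie at 1101, 572 and 469 CPM and differ most between the libraries, while those on chromosomes 9, 4 and 11 have nearly the same level in both.

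The next 9 loci lay between 99.2 and 216 CPM, with an SD between 0.317 and 28.8 CPM, less than that of each of the 3 highest. The locus on chromosome 18, chr18:67051663-67052767 on the plus strand, had 83 entries, the most of any L1 locus, and 216 ± 20.7 CPM. The locus chr9:67695715-67696640 on the plus strand had 69 entries and 3102 and 3613 counts, at 143 ± 3.06 CPM. The locus chr4:94309055-94309984 on the plus strand, opposite to an intron of the lincRNA gene Gm12648, had 48 entries and 2791 and 3143 counts, at 127 ± 0.317 CPM. These 3 loci, each with many entries, differed little between the libraries, unlike the loci on chromosomes 2 and X with 50 and 63 entries.

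Chromosome 7 carried 4 of these 9 loci. The locus chr7:52909732-52912045 on the minus strand, the longest of the 12 with 2314 bases, had 42 entries and 125 ± 28.8 CPM. The locus chr7:69884581-69884880 on the plus strand had 16 entries and 108 ± 5.40 CPM, and chr7:69902923-69903419, on the plus strand and less than 20 kb away, had 8 entries and 101 ± 20.3 CPM. The locus chr7:73803055-73803464 on the plus strand, opposite to an intron of the lincRNA gene Gm10619, had 20 entries and 103 ± 14.9 CPM. These loci did not move together between the libraries, as the first was higher in library 1 and the other 3 in library 2.

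The last 2 of the 12 were short. The locus chr11:15329342-15329489 on the minus strand had 148 bases and 5 entries, with 2556 counts in library 1 and 2823 in library 2, at 115 ± 1.87 CPM. The locus chr19:22852132-22852295 on the plus strand had 164 bases and 25 entries, the densest of the 12 with 152 entries per kb, and 99.2 ± 25.7 CPM. It lay in an intron of Trpm3, which encodes a cation channel, on the strand of the gene.

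Within these loci the counts were spread over many entries or held by 1. At the locus on chromosome 11, the single entry novel_pir16544 held 89.4% of the counts in library 1 and 91.6% in library 2. It had 2284 and 2585 counts, or 104 ± 0.109 CPM, the most even of the 10 highest entries. At chr7:69902923, novel_pir52151 held 84.7% and 89.9%, with 1604 and 2565 counts and 88.2 ± 21.4 CPM. At chr7:73803055, novel_pir52667 held 59.7% and 63.2%, with 1211 and 1778 counts. In contrast, the highest entry of the locus on chromosome X, novel_pir58485 with 2118 and 1544 counts, held 16.9% in each library.

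The highest single entry was novel_pir38661 in the locus on chromosome 2, with 4854 counts in library 1 and 16971 in library 2, or 452 ± 327 CPM. The second was novel_pir6367 in the Anks1b intron, with 13593 and 6314 counts, or 436 ± 258 CPM. A further entry of each locus was in the 4 highest, novel_pir38656 with 2254 and 7158 counts and novel_pir6366 with 3470 and 2300 counts. Both entries of chromosome 2 were higher in library 2 and both of the Anks1b intron in library 1. The remaining entries of the 10 highest were novel_pir38644 on chromosome 2, with 2630 and 1854 counts, and novel_pir58486 on chromosome X, with 1849 and 1212 counts.

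At the locus on chromosome 2, high counts and differences between the libraries stood in a block of entries. Entry numbers of different loci never interleaved in any of the 1648 loci, and no source describes their order inside a locus. The 7 listed entries numbered 38654 to 38663 followed each other by number, although some numbers in that range were not listed. All were higher in library 2, and the log2 ratio (library 1 over library 2) ran from -1.63 to -0.55. This block was picked out after its values were seen, by its direction around the highest entry, so the shared direction is fixed by the choice. Its counts were 8718 in library 1 against 27928 in library 2, or 397 and 1125 CPM, and it held 51.2% and 78.8% of the locus. The other 43 entries had 8293 and 7517 counts, or 377 and 303 CPM, and 26 of them were higher in library 1 and 17 in library 2. These values are a description, since leaving out entries chosen for one direction moves the rest the other way.

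The locus on chromosome X had a similar peak along its entry numbers. Its 6 entries numbered 58482 to 58487, taken by the same rule, had 7058 and 4612 counts in libraries 1 and 2 and held 56.3% and 50.5% of the locus. The rule takes entries of one direction, here higher in library 1, and their log2 ratios ran from 0.63 to 1.35. In the Anks1b intron all 3 entries were higher in library 1, with log2 ratios from 0.77 to 1.80.

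**Figure D2:**
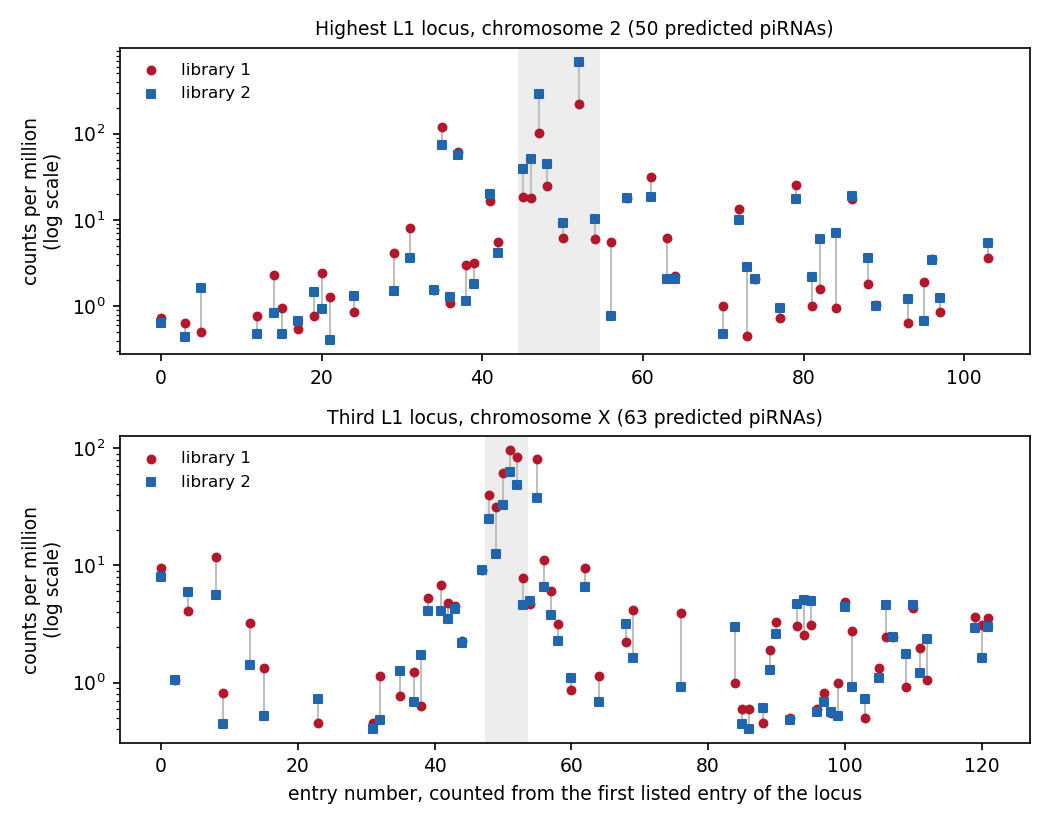
CPM (log scale) of each entry in the loci on chromosome 2 (50 entries, above) and chromosome X (63 entries, below), by entry number from the first listed entry, with library 1 as circles, library 2 as squares and a grey line joining the 2 values of an entry. The shaded blocks hold the highest entry and its neighbours chosen for the same direction, 7 entries on chromosome 2 (higher in library 2) and 6 on chromosome X (higher in library 1).

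Over all 1450 L1 entries, the median log2 ratio of library 1 over library 2 was 0.18, with quartiles of -0.44 and 0.79. The median was the same in ERVL-MaLR and over all predicted piRNAs, 0.27 in ERVK, -0.38 in known piRNAs and -0.20 over all entries whose mean count reached 10. Scaling with TMM factors of edgeR moved the median of all entries to -0.01 and that of L1 to 0.36, and DESeq2 size factors moved them to -0.02 and 0.35. Each of these factors shifts all ratios by one constant, so the distance between the medians of L1 and of all entries is the same under every scaling.

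More than 2-fold apart in CPM were 408 L1 entries (28.1%). Of these, 265 (18.3%) were higher in library 1, against 12.6% of all 23876 entries whose mean count reached 10. The other 143 (9.86%) were higher in library 2, against 21.2% of all entries. The floors of these sets were unlike. Every L1 entry had at least 10 counts in both libraries, while all entries needed only a mean count of 10. The shares of L1 were near those of all predicted piRNAs, of which 1270 of 6588 (19.3%) were over 2-fold higher in library 1 and 659 in library 2. The mean chi-square per L1 entry was 19.2, against 16.1 over all predicted piRNAs, where counting noise alone gives about 1. Entries of the highest counts weigh most in such a mean, so it is not the value of a typical entry. Among the 119 L1 entries with at least 100 counts in both libraries, 22 were over 2-fold apart, and no such count is given here for other classes.

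The entries were also summed over loci, which gave a mean chi-square of 43.0 per L1 locus, in which the loci of highest counts again weigh most. Over 4-fold apart were 17 of 354 L1 loci and 58 of 1450 L1 entries, against 311 of 6588 predicted piRNAs of all classes. Of the 354 L1 loci, 62 (17.5%) were over 2-fold higher in library 1, against 18.5% of all predicted piRNA loci, and 30 (8.47%) were over 2-fold higher in library 2, against 7.1% of all loci. Both shares were near those of all loci. Among L1 loci with a single entry, 33.7% were over 2-fold apart, among those with 2 to 4 entries 22.5%, and among those with 5 or more 7.25%. No such shares by number of entries are given here for other classes. The median level of these L1 groups was 1.10, 4.11 and 22.0 CPM. The number of entries and the depth of a locus thus went together and cannot be told apart here. Of the 19 L1 loci with a mean count of at least 1000, only the Anks1b intron was over 2-fold apart, with a log2 ratio of 1.17. The next were the loci on chromosome 2 at -0.88, chromosome X at 0.63, chr10:115992046-115993296 at 0.55 and chr19:22852132 at 0.53. For other classes no count at that minimum is given here.

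**Figure D3:**
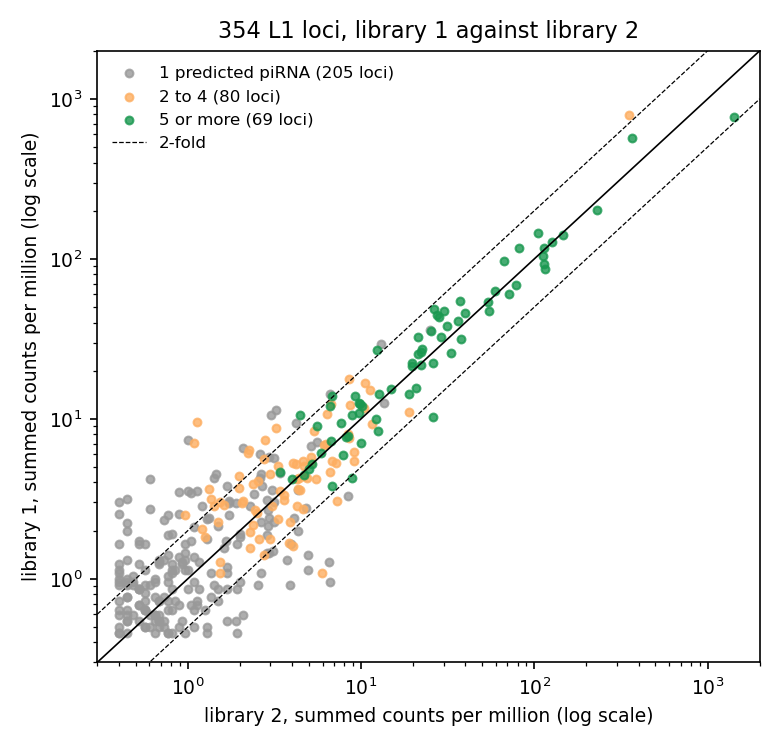
Summed CPM of each of the 354 L1 loci in library 1 (vertical) against library 2 (horizontal), both on log scales, coloured by the number of predicted piRNAs in the locus. The solid line marks equal levels and the dashed lines 2-fold. Outside the dashed lines lie 33.7% of loci with a single entry and 7.25% of loci with 5 or more. No such shares are given for other classes.

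Among the 31 L1 entries whose mean count reached 500, 7 were over 2-fold apart, with no matching count for other classes given here. The 5 furthest apart came from the 3 highest loci. They were novel_pir38661 at a log2 ratio of -1.63, novel_pir38655 with 395 and 1255 counts at -1.49, novel_pir38656 at -1.49, novel_pir58483 with 695 and 308 counts at 1.35, and novel_pir6367 at 1.28. The minimum of 500 favours entries of the loci with the largest counts, so their place in those loci is partly fixed by it. Just below it, novel_pir53499 of chr7:52909732 had 701 and 227 counts, at a log2 ratio of 1.80.

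By strand of the L1 copy, 196 loci with 916 entries lay on the plus strand and 158 loci with 534 entries on the minus strand. Plus-strand copies held 68.9% of the L1 counts in library 1 and 74.3% in library 2, or 71.6 ± 3.87%. Both of the highest loci were on the plus strand, and without them the share was 56.5% in library 1 and 61.2% in library 2. Without these 2 loci the summed L1 level was 3944 CPM in library 1 and 3462 CPM in library 2.

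L1 loci lay on 21 chromosomes, with an uneven distribution. Chromosome 10 carried 136 of the 354 loci (38.4%), against 32.8% of the loci of other classes together, and 91 of its L1 loci had a single entry. The share of loci was 38.2% in ERVK and 32.5% in ERVL-MaLR, so that of L1 was not particular to it. Chromosome 10 held 295 of the 1450 L1 entries (20.3%) and 1284 of the 5137 entries of other classes. Against the other classes together, L1 had the larger share there by loci and the smaller one by entries. Chromosome 10 entries carried the lowest numbers of the prediction, 4 to 14785 of numbers that run to 59086, and the cause of their excess was not tested. In counts, chromosome 10 took 28.0% of L1 in library 1 and 17.1% in library 2. With the locus in the Anks1b intron left out, it took 15.9% and 11.1%. The next highest in entries were chromosome 7 with 28 loci and 180 entries, chromosome 9 with 13 loci and 155 entries, and chromosome 18 with 15 loci and 152 entries. Chromosome X had 8 loci and 70 entries, of which 63 belonged to a single locus, and chromosome Y had 1 locus with 3 entries.

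With respect to genes, 238 of the 354 L1 loci (67.2%) lay outside genes of GENCODE M21, and these held 69.6% of the L1 counts in library 1 and 76.9% in library 2. Introns held 41 loci on the strand of the gene, with 19.0% and 10.9% of the counts, and 61 loci on the opposite strand, with 9.49% and 9.89%. The locus in the Anks1b intron made up most of the counts in introns on the strand of the gene. Exons were touched by 14 loci, 8 on the strand of the gene and 6 opposite to it. Together these exonic loci held 0.777% and 1.06% of the counts in library 1, and 0.972% and 1.28% in library 2, for the same and the opposite strand in that order. The highest were the copies chr7:73820058 at 34.7 ± 4.56 CPM, opposite to Gm21269, and chr7:73780521, opposite to Gm10619.

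Many L1 loci had predicted piRNA loci of other repeats beside them. Within 10 kb on the same strand, 102 of the 354 L1 loci (28.8%) had a locus of another class, against 35.7% of ERVL-MaLR loci and 14.9% of ERVK loci. The 102 loci held 29.1% of the L1 counts in library 1 and 30.5% in library 2. No other predicted piRNA locus lay within 10 kb on the same strand of 241 L1 loci. Loci of all classes on 1 strand were chained into neighbourhoods where they were at most 10 kb apart. This placed 113 L1 loci in 59 neighbourhoods, with 33.8% of the L1 counts in library 1 and 35.2% in library 2. When loci of either strand were chained, an alternative chosen after seeing the data, 131 L1 loci in 56 neighbourhoods held 41.0% and 41.9%. Strands of adjacent loci were compared over predicted piRNA loci of all classes, not over L1 alone. Pairs up to 100 bases apart were on the same strand in 61.9% of 84 pairs. The share was 65.9% of 173 pairs over 100 and up to 1000 bases apart. It was 52.9% of 240 pairs over 1000 and up to 10000 bases apart. Over 10000 and up to 100000 bases apart, 114 of 228 pairs shared a strand.

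The highest neighbourhood for L1 on a single strand lay on chromosome 18 at chr18:67036778-67074156 and held 17 plus-strand loci, of which 12 were L1. Its L1 loci had 357 ± 5.29 CPM in sum, 59.5% of the neighbourhood in library 1 and 68.1% in library 2. The L1 part differed by a log2 ratio of -0.03 between the libraries, while the other repeats of the neighbourhood were higher in library 1 by 0.51. Besides the locus with 83 entries, it held an L1 locus of 19 entries at 61.0 ± 2.85 CPM and one of 14 entries at 26.9 ± 7.85 CPM. An ERVL-MaLR locus of 20 entries, at 87.6 ± 31.0 CPM, lay between them.

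The neighbourhood chr9:67695094-67709633 held 5 plus-strand loci, 3 of them L1, with 164 ± 16.0 CPM from L1, which was 95.1% and 92.6% of its level in libraries 1 and 2. Next to its L1 locus of 69 entries, with 118 bases between them, an ERVL-MaLR locus on the minus strand had 43 entries and 203 ± 22.1 CPM. The neighbourhood chr4:94304678-94309984 held 4 L1 loci among 5, with 150 ± 2.42 CPM from L1 and 98.4% and 97.9% of its level. In these 2 neighbourhoods, as chained on a single strand, L1 made up nearly the whole of the plus strand. With both strands chained, the neighbourhood on chromosome 4 was longer and held 10 plus-strand loci, 4 of them L1. The neighbourhood chr19:22851630-22852295 consisted of 2 L1 loci in the Trpm3 intron, at 123 ± 28.3 CPM. The neighbourhood chr7:73802744-73812253 held 2 L1 loci among 7, with 114 ± 16.5 CPM from L1 and 54.0% and 59.9% of its level. There an ERVL-MaLR locus of 40.4 ± 11.5 CPM lay beside the L1 locus of 20 entries, with 3 bases between them.

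With both strands chained, the neighbourhood on chromosome 7 ran from 73793185 to 73837671 and held 20 loci, 6 of them L1, 4 on the plus and 2 on the minus strand. It includes the aligned copies chr7:73820058 and chr7:73836844, on opposite strands and less than 20 kb apart. L1 had 161 ± 22.2 CPM there, 28.6% of the neighbourhood in library 1 and 35.9% in library 2.

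**Figure D4:**
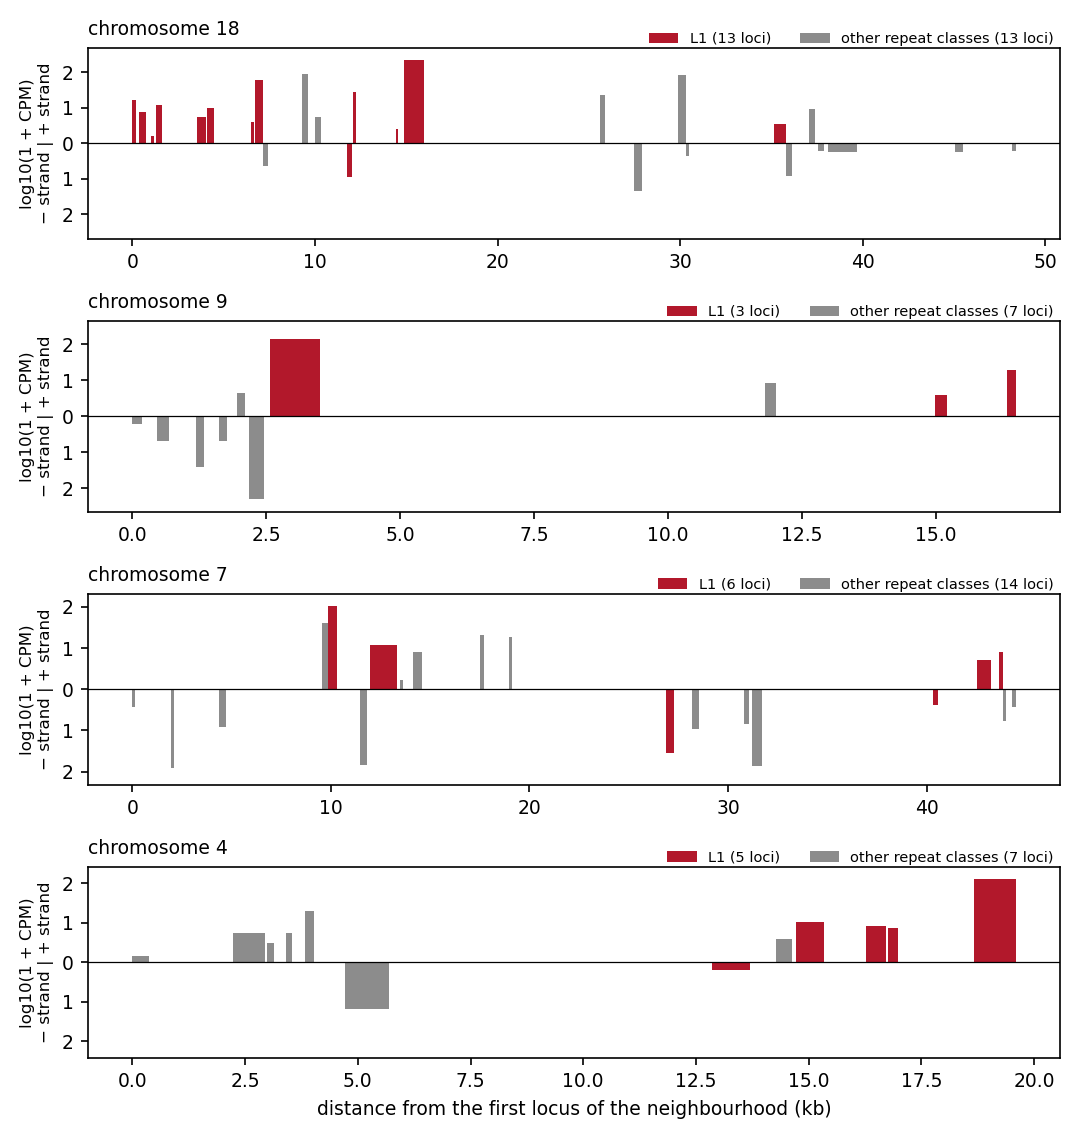
Predicted piRNA loci in the 4 neighbourhoods of highest L1 level with both strands chained, by distance in kb from the first locus; bars above the line are plus-strand repeats and bars below it minus-strand repeats, with height log10 of 1 plus the mean CPM and width the length of the interval (at least 0.15 kb). L1 loci (13, 3, 6 and 5, from top to bottom) lie mostly on the plus strand, while loci of other repeat classes lie on both.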

How the data were processed

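After removal of low-quality reads, the authors used Bowtie2 and cmsearch for mapping, assigned each tag to 1 class by database priority, and predicted further piRNAs with Piano from transposon matches. Tool versions and build were not given in the sources used here. Deposited counts are unnormalized whole numbers of tags. The deposited values named TPM are RPM in unit, tags per 1000000 of a larger total with no length term, and served only as an alternative.

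Entries with identical intervals were summed into loci. CPM were computed over all listed counts. Shares have exact Clopper-Pearson 95% intervals (SciPy 1.17.1), which cover counting error only. Log2 ratios used entries whose mean count reached 10, and over 2-fold stood in for a call. Loci were compared with GENCODE M21 and aligned with BLAST 2.17.0 (E value up to 1e-05). The ratio step was tested on simulated data. Other tools were pandas 2.3.3, NumPy 2.4.6, matplotlib 3.10.9, R 4.3.3, edgeR 4.0.16 and DESeq2 1.42.0.

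The rule named the 12 loci of highest mean CPM, the 5 with the most entries, the 5 furthest apart at mean counts from 1000 up, the 10 highest entries, the 5 furthest apart at mean counts from 500 up, and the 5 neighbourhoods of highest L1 level. Exonic loci, the promoter and the entry blocks were added after the data were seen. The members, classes and lists were chosen with earlier results of these data known.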

Additional observations from a re-analysis of the deposited data

How the results depend on the processing

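Of 26 alternatives of the main results other than leaving out a library, 15 were counted as keeping the value. For shares and levels the limit was the SD of the libraries, and for counts 1.5 times. For the median log2 ratio it was 0.946, which is no spread of libraries, since each entry has a single ratio. By that wide limit, 0.36 with TMM and 0.35 with DESeq2 factors counted as keeping 0.18. The L1 share by TPM values and the median with no minimum could not move. Of 25 named loci and entries, 20 moved by less than their SD under the deposited TPM values. These values rescale each library by a constant, so a move below the SD only reflects a large SD. Members with a small SD moved by more than it, such as chr4:94309055, with an SD of 0.317 CPM, from 127 to 120. The L1 share of predicted piRNA counts, 22.6%, was 26.0% with all LINE classes, 3.16% of all piRNA counts, and 16.7% without the 2 highest loci. The summed L1 level of 5375 CPM was 5068 by the deposited TPM values and 20546 without the repeat, intergenic, intron and exon entries in the total. Without the 2 highest loci the plus-strand share was 58.8%. With at least 100 counts in both libraries, 22 of 119 L1 entries were over 2-fold apart, against 408 of 1450. Loci with another class nearby numbered 34 within 1 kb, against 102 within 10 kb. The share of L1 counts in neighbourhoods, 34.5%, was 38.2% at 50 kb and 41.4% on either strand. L1 loci in genes numbered 116 on either strand, against 49 on the strand of the gene. With either library left out, the L1 share ranged from 21.6 to 23.6%, the level from 5241 to 5510 CPM, the share of the 10 highest loci from 55.6 to 59.0% and the plus-strand share from 68.9 to 74.3%. No paired analysis was possible because both libraries belong to 1 group. With 2 libraries, depth fixes a share within a library closely, but the spread between libraries rests on a single difference. Entries seen in only 1 library were not analysed here, and copies of similar sequence can share tags.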
